A study of Mus musculus with 8 samples.

Results

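Cells store fatty acids as triglyceride, a glycerol backbone that carries fatty acids on all its positions. In the glycerol phosphate route of fat cells, the backbone comes from glycerol 3-phosphate, acyltransferases add the first fatty acids, a lipin phosphatase removes the phosphate, and a DGAT enzyme adds the last fatty acid. A second route starts from monoacylglycerol, and triglyceride collects in lipid droplets that bud from the endoplasmic reticulum. Preadipocytes switch on much of this machinery when they turn into fat cells.

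The genes described here are 10 genes of triglyceride synthesis and handling out of 26461 genes and unnamed transcripts that were kept on the arrays: Gpd1, Gpam, Agpat2, Lpin1, Mogat1, Dgat1, Dgat2, Bscl2, Pnpla3 and Mgll. They were chosen by name, through the RefSeq accessions of their probes, and 15 probes matched them. Of these 10 genes, 7 had a probe well above background on all 8 arrays, and all 10 passed the filter, which asked for this on 2 arrays or more. Each gene is represented by its brightest probe, and Lpin1, Pnpla3 and Mgll have more than 1.

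Total RNA came from mouse 3T3-L1 cells, a preadipocyte line. The sh8 cells carry the stably transfected hairpin shRNA-8 against the long noncoding RNA slincRAD, and the WT cells are unmodified 3T3-L1 cells. Each line gave 1 array at each of days -2, 0, +2 and +4, where day 0 is confluence and is followed by induction with insulin (167 nM), dexamethasone (1 µM) and isobutylmethylxanthine (0.5 mM). The sources used here do not say whether the sh8 cells are 1 clone or a pool, and neither a line with a control hairpin nor the level of slincRAD was analysed here.

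The 75th percentile of intensity lay between 761 and 1242 on the 8 arrays, the share of probes well above background between 64.9% and 81.7%, and no array had a saturated spot. With 1 array per line and day, the number of arrays limits the precision, and p-values measure how a difference between lines varied over days, or a difference between days over lines, which may be partly technical. By the file headers, the arrays of days -2 and 0 belong to one scan and those of days +2 and +4 to another, so a change across induction and a change of scan cannot be told apart, while both lines are present in each scan. Of 11 lung epithelium genes on the array, all 11 were well above background on every array of days +2 and +4, and 4 to 6 were on arrays of days -2 and 0. The lung surfactant gene Sftpc, at levels of 1.62 and 1.57 in sh8 cells and 1.02 and 1.53 in WT cells at days +2 and +4, was not well above background on any array of days -2 and 0. Among 12 fat cell genes, 11 were well above background on every array of days +2 and +4, with Lep on none, and 6 or 7 on those of days -2 and 0. Of all probes, 64.9% to 68.5% were well above background on arrays of days -2 and 0. On arrays of days +2 and +4 the share was 72.4% to 81.7%, so counts of genes above background are to be read beside this rise. All 8 preadipocyte and fibroblast genes were well above background on every array.

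Sequences of the 250 bases before the start of transcription were matched by symbol for 7 of the 10 genes (RefSeq, GRCm38.p6). Those of Gpam, Bscl2, Pnpla3 and Mgll are shown because these genes differed between the lines and kept that call under each of 3 other scalings. For genes with several listed starts the first window is given. Each runs 5′ to 3′ towards the start, and capitals mark a CCAAT box (CCAAT, or ATTGG where it lies on the other strand), a GC box (GGGCGG) or an E-box (CACGTG). Gpam is at chr19:55127239-55127488 (minus strand), Bscl2 at chr19:8837217-8837466 (plus strand), Pnpla3 at chr15:84167566-84167815 (plus strand) and Mgll at chr6:88724162-88724411 (plus strand).
Gpam: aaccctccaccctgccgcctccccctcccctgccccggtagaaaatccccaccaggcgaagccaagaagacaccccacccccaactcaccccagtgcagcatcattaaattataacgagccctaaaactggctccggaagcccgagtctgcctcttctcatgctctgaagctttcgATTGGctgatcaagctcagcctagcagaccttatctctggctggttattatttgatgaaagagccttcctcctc
Bscl2: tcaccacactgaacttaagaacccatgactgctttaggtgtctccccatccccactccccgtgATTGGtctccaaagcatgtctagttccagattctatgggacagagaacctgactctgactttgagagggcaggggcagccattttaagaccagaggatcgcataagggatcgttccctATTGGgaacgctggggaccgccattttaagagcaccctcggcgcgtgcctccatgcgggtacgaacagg
Pnpla3: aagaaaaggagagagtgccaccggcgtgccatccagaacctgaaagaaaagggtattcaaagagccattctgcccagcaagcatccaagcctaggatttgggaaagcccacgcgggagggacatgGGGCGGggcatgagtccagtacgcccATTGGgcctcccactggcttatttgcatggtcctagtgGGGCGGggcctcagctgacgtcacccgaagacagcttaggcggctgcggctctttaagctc
Mgll: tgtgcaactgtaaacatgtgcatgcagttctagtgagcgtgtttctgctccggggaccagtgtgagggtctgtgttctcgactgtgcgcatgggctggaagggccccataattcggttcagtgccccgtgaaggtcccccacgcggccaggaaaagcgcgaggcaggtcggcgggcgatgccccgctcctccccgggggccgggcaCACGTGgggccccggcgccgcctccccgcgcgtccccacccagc

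Both strands were searched, and shares below are of 27025 promoter windows of the same length. A CCAAT box, present in 34.5% of them, began 74 bases before the Gpam start on the opposite strand, 187 and 69 bases before the Bscl2 start and 99 bases before the Pnpla3 start. A GC box, present in 32.9%, began 125 and 61 bases before the Pnpla3 start, and an E-box, present in 6.05%, began 44 bases before the Mgll start. The nuclear receptor half-site AGGTCA, present in 13.8%, was in none of these 4 windows. In the windows that are not shown, it began 74 bases before the Lpin1 start and was present in the second windows of Gpam and Bscl2. The repeat of 2 AGGTCA half-sites with 1 base between (0.037%), which overlaps the half-site, was in none of the 11 windows of the 7 genes, and neither were the C/EBP motif TTGCNNAA (9.55%) or the TATA box TATAAA (13%). These are matches of letters only.

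The first comparison asks how cells with the slincRAD hairpin differ from unmodified cells over the course. Of the 10 genes, 5 were higher in sh8 cells (Gpd1, Mogat1, Bscl2, Pnpla3 and Mgll) and 1 was lower (Gpam), by limma with an adjusted p under 0.05 over all genes. Among all 26461 genes and transcripts 16.8% were higher and 10.3% lower by the same rule. The median log2 difference of the 10 genes was 0.58, and that of all genes was 0.13. Levels are given below as the log2 intensity relative to the array's 75th percentile, always in the order of days -2, 0, +2 and +4, and they do not compare 1 gene with another.

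**Figure D1:**
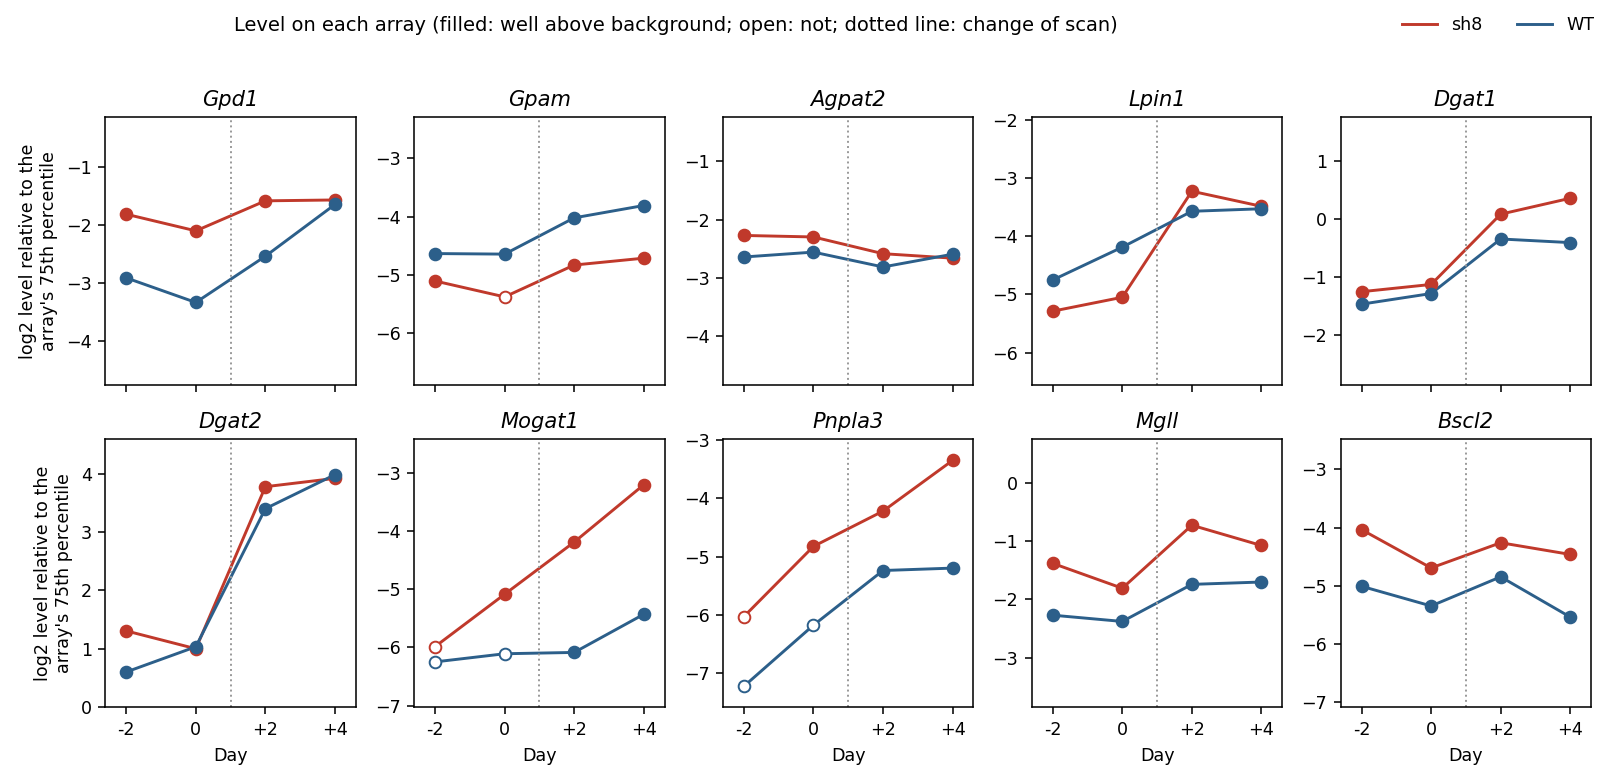
Level of each gene on each of the 8 arrays by day, in log2 units relative to the array's 75th percentile, with 1 point per array (sh8 red, WT blue) and every panel spanning the same number of log2 units. Bscl2 in sh8 cells lies above WT on every pairing of arrays and Gpam lies below, while Dgat2, Dgat1 and Lpin1 are higher on all arrays of days +2 and +4 than on all of days -2 and 0.

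Gpd1, the cytosolic dehydrogenase that makes glycerol 3-phosphate, had levels of -1.82, -2.10, -1.59 and -1.57 in sh8 cells, against -2.91, -3.33, -2.54 and -1.65 in WT cells. The sh8 values stayed within a narrow band while the WT values were low until day +2, and at day +4 the lines were within 0.078 of each other. Over the 4 days Gpd1 was 1.79-fold higher in sh8 cells (log2 difference 0.84 ± 0.22 SE, limma adjusted p = 0.0482). Because of the WT array at day +4, the arrays of the 2 lines overlapped.

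Gpam, the mitochondrial acyltransferase that adds the first fatty acid, had levels of -5.10, -5.38, -4.83 and -4.71 in sh8 cells, against -4.63, -4.64, -4.02 and -3.81 in WT cells. Every sh8 array lay below every WT array, a pattern found for 7.07% of all genes, and the sh8 array at day 0 was not well above background. Gpam was 1.66-fold lower in sh8 cells (log2 difference -0.73 ± 0.11 SE, limma adjusted p = 0.0179). The difference on single days was -0.47, -0.73, -0.81 and -0.90.

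Agpat2, the acyltransferase for the next step, whose human form is mutated in a congenital lipodystrophy, had levels of -2.27, -2.30, -2.58 and -2.66 in sh8 cells, against -2.64, -2.56, -2.81 and -2.59 in WT cells. The arrays of the lines overlapped, and the difference of 0.20 ± 0.11 SE did not pass (limma adjusted p = 0.228). It had the smallest range over the 8 arrays among the 10 genes, 0.54 log2 units.

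Lpin1 encodes lipin 1, the phosphatase that makes diacylglycerol. Its levels were -5.29, -5.05, -3.23 and -3.49 in sh8 cells, against -4.75, -4.19, -3.57 and -3.53 in WT cells. At days -2 and 0 it was lower in sh8 cells, by differences of -0.54 and -0.86, and at days +2 and +4 it was higher, by 0.34 and 0.042. The overall difference was -0.25 ± 0.23 SE (limma adjusted p = 0.432). A dimmer second probe of Lpin1, well above background on 2 sh8 arrays (days +2 and +4) and no WT array, differed by -0.81, -0.30, 1.18 and 1.61 on the 4 days. These had the sign of the first probe on each day, but at days -2 and 0 the second probe was not well above background in either line. Their mean of 0.42 was of opposite sign to the fitted difference of the first probe.

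Mogat1, which makes diacylglycerol from monoacylglycerol, had levels of -5.99, -5.09, -4.19 and -3.21 in sh8 cells, against -6.25, -6.11, -6.09 and -5.43 in WT cells. It was well above background on 3 sh8 arrays (days 0, +2 and +4) and 2 WT arrays (days +2 and +4). The difference was 0.26 at day -2, 1.02 at day 0, 1.89 at day +2 and 2.22 at day +4, and the arrays of the lines overlapped through the sh8 array at day -2. Averaged over the days Mogat1 was 2.55-fold higher in sh8 cells (log2 difference 1.35 ± 0.36 SE, limma adjusted p = 0.0487).

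Dgat1 and Dgat2 are unrelated enzymes that each add the last fatty acid. Dgat1 had levels of -1.25, -1.13, 0.079 and 0.35 in sh8 cells, against -1.47, -1.28, -0.35 and -0.41 in WT cells. It was above WT on each of the 4 days, by 0.16 to 0.76, but the difference of 0.39 ± 0.14 SE did not pass (limma adjusted p = 0.0905). Dgat2 had levels of 1.30, 1.00, 3.78 and 3.92 in sh8 cells, against 0.60, 1.03, 3.40 and 3.98 in WT cells. Its values overlapped between the lines, with a difference of 0.25 ± 0.17 SE (limma adjusted p = 0.301).

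Bscl2 encodes seipin, a protein of the endoplasmic reticulum needed for normal lipid droplets, and its human form is mutated in another congenital lipodystrophy. Its levels were -4.03, -4.69, -4.26 and -4.46 in sh8 cells, against -5.01, -5.34, -4.84 and -5.53 in WT cells. Every sh8 array lay above every WT array, as for 10.2% of all genes. Bscl2 was 1.77-fold higher in sh8 cells (log2 difference 0.82 ± 0.13 SE, limma adjusted p = 0.0180).

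Pnpla3, a lipid droplet protein related to the main triglyceride lipase, had levels of -6.03, -4.82, -4.22 and -3.35 in sh8 cells, against -7.22, -6.18, -5.24 and -5.20 in WT cells. It was well above background on 3 sh8 arrays (days 0, +2 and +4) and 2 WT arrays (days +2 and +4). The sh8 array was higher on every day, by 1.02 or more, although the lines overlapped because both had higher values at later days. Pnpla3 was 2.56-fold higher in sh8 cells (log2 difference 1.35 ± 0.16 SE, limma adjusted p = 0.0134). A dimmer second probe, well above background on 1 array of each line, differed by 0.70, 0.71, 1.08 and -0.012 on the 4 days.

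Mgll, which splits monoacylglycerol into glycerol and a fatty acid, had levels of -1.38, -1.81, -0.73 and -1.08 in sh8 cells, against -2.27, -2.38, -1.74 and -1.70 in WT cells. On each day the sh8 array was higher, by 0.89, 0.57, 1.02 and 0.63, and the overlap came from the sh8 array at day 0. Mgll was 1.71-fold higher in sh8 cells (log2 difference 0.78 ± 0.12 SE, limma adjusted p = 0.0179). A second probe of the same transcript, well above background on all 8 arrays, gave a mean difference of 0.66. The 2 probes of another Mgll transcript, well above background on 4 and 0 arrays, gave -0.31 and 0.36.

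**Figure D2:**
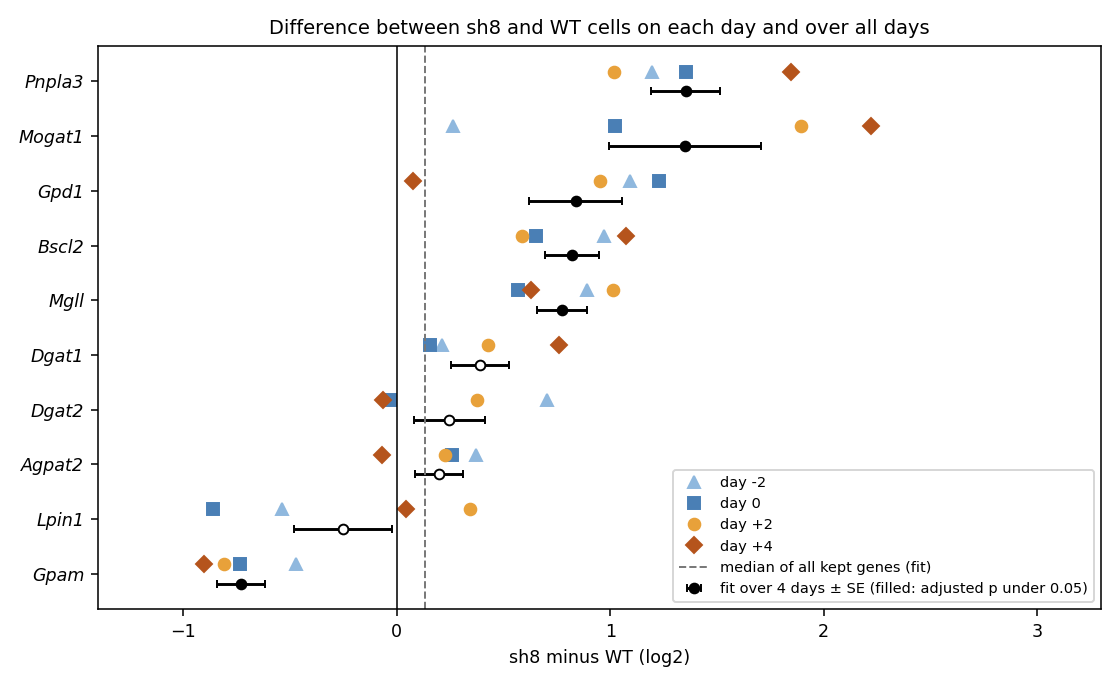
Difference between sh8 and WT cells in log2 units for each gene, on each day (coloured points, 1 array per line) and over the 4 days (black points with SE, filled where the adjusted p is under 0.05). The dashed line is the median of all kept genes (0.13), and 6 genes, 5 to the right and Gpam to the left, passed.

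Differences of the same sign on all 4 days were found for 6 genes that were higher in sh8 cells (Gpd1, Dgat1, Mogat1, Bscl2, Pnpla3 and Mgll) and for Gpam, which was lower. Among all genes 32.3% were higher and 20.4% lower on every day. Differences of at least 1 log2 unit towards sh8, for genes that 1 or both arrays of the day measured well above background, were seen at day -2 for Gpd1 (4.75% of all genes), at day 0 for Gpd1, Mogat1 and Pnpla3 (5.77%), at day +2 for Mogat1, Pnpla3 and Mgll (13.9%), and at day +4 for Mogat1, Bscl2 and Pnpla3 (9.43%). None of the 10 genes was lower by that much on any of the 4 days, where 4.07%, 4.11%, 5.42% and 5.16% of all genes were. Mogat1 had its greatest difference at day +4, and Gpd1 had its smallest there.

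Within the scan of days +2 and +4, read from the interaction model, 6 genes passed (limma): Mogat1 (2.06), Pnpla3 (1.43), Bscl2 (0.83), Mgll (0.82) and Dgat1 (0.59) were higher in sh8 cells and Gpam (-0.86) was lower, where 16.9% of all genes were higher and 11.9% lower. In a fit to the 4 arrays of that scan alone, Mogat1 and Gpam passed, and Pnpla3 (limma adjusted p = 0.0505), Mgll (0.0557) and Bscl2 (0.0636) did not, nor did Dgat1. Within the scan of days -2 and 0, 0 of the 10 genes passed by limma, 6 of them had an unadjusted p under 0.05, and 6.04% of all genes were called higher and 4.04% lower. Of those 6, Pnpla3 is given below as a fold, and the log2 differences of the others were 1.16 for Gpd1, 0.81 for Bscl2, 0.73 for Mgll, -0.60 for Gpam and -0.70 for Lpin1. Mogat1 and Pnpla3 were not well above background on either WT array of days -2 and 0, nor on the sh8 array of day -2. With WT values raised to at least the lowest signal well above background on each array, their means were 1.30-fold and 1.40-fold higher in sh8 cells. These folds are not strict bounds, since the sh8 mean includes the array of day -2. Mogat1 had an unadjusted p of 0.0544 there (limma). Leaving out any 1 array of day 0, +2 or +4 left 0 of the 10 genes past the threshold. With day as a block, leaving out 1 array also removes the other array of that day from the difference between the lines. Either removal therefore gives the same result for the lines. Gpd1 and Mogat1 lost their calls with quantile scaling, with median centring, with the authors' values, with no filter and with scan as the block in place of day. With normexp background correction, an alternative treatment of the background signal, the log2 differences were smaller: Pnpla3 (0.45) and Bscl2 (0.28) passed by limma, and Mogat1 (0.51, adjusted p = 0.0531) and Gpam (-0.22, adjusted p = 0.0588) did not.

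Markers of fat cells and of other cell types also differed between the lines. Pparg, the nuclear receptor at the centre of adipogenesis, was 3.01-fold lower in sh8 cells (log2 difference -1.59 ± 0.17 SE, limma adjusted p = 0.0116). Fabp4, which binds fatty acids in the cytosol of fat cells, was lower by a similar log2 difference (-1.53 ± 0.13 SE, adjusted p = 0.0101). Of 11 fat cell genes tested 3 were lower and 0 higher in sh8 cells, and 9 had a fitted difference below 0. The log2 of their summed intensity, in which Lpl and Fabp4 were the brightest, ran from 3.60 to 4.75 in sh8 cells and from 5.19 to 6.14 in WT cells. The median level of the 12 fat cell genes on the array was higher in sh8 cells except at day +4. It was -5.03, -4.57, -3.63 and -3.59 in sh8 cells, against -5.21, -4.97, -4.15 and -2.33 in WT cells. Of 7 macrophage and leukocyte genes 5 were higher in sh8 cells, with summed levels of 2.75 to 3.01 in sh8 cells and 2.36 to 2.62 in WT cells, and the leukocyte gene Ptprc at -4.15 to -3.25 in sh8 cells and -4.68 to -3.58 in WT cells. Of 8 preadipocyte and fibroblast genes 2 were higher in sh8 cells (Thy1 by 1.21 and Ly6a by 1.45 on the log2 scale) and 2 were lower (Pdgfrb, -0.65, and Dlk1, -0.38), with summed levels of 8.86 to 9.15 in sh8 cells and 8.64 to 8.99 in WT cells. Of 11 lung epithelium genes 2 were higher and 1 lower in sh8 cells. Among all genes 16.8% were higher and 10.3% lower, the shares beside which each of these counts is to be read, and the lung counts were near them. The summed level of the 5 red blood cell genes was higher in sh8 cells on each of the 4 days, at -0.45, -0.43, 2.24 and 2.50 in sh8 cells, against -1.08, -1.02, 1.99 and 1.92 in WT cells. The part of these cell types in the differences of the triglyceride genes was not tested, and fewer cells of a type and less RNA per cell cannot be told apart in such samples.

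The second comparison follows the genes through confluence and induction, averaged over both lines. Between day 0 and day -2, 0 of the 10 genes passed by limma, as did 0 of all genes (0% called), with 6724 of all genes and 2 of the 10 at an unadjusted p under 0.05. Those 2 were Bscl2, at -0.50 ± 0.18 SE on the log2 scale, and Pnpla3. Pnpla3 was not well above background on either array of day -2, nor on the WT array of day 0. With day -2 values raised to at least the lowest signal well above background on each array, its mean was 1.36-fold higher at day 0. This fold is not a strict bound, since the day 0 mean includes the WT array. The median change of the 10 genes was 0.046, and that of all genes was 0.081.

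At day +2 against day 0, 3 of the 10 genes were higher (Dgat2, Dgat1 and Mgll) and 0 were lower, where 8.98% of all genes were higher and 2.91% lower. Dgat2 was 5.96-fold higher at day +2 (log2 change 2.58 ± 0.23 SE, limma adjusted p = 0.0105), by 2.78 in sh8 cells and 2.37 in WT cells. Dgat1 was 2.10-fold higher (1.07 ± 0.19 SE, adjusted p = 0.0342), by 1.21 in sh8 cells and 0.94 in WT cells. Mgll was 1.81-fold higher (0.86 ± 0.17 SE, adjusted p = 0.0396). Lpin1, with a change of 1.22 ± 0.32 SE, larger than those of Dgat1 and Mgll, did not pass (adjusted p = 0.0755), and its change was 1.82 in sh8 cells and 0.62 in WT cells. The median of the 10 genes was 0.71, and that of all genes was 0.11. Dgat2 alone passed with quantile scaling, with the authors' values and without any 1 array of day -2 or +4, and 0 of the 10 passed without any 1 array of day 0 or +2.

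At day +4 against day 0, 5 of the 10 genes were higher (Dgat2, Pnpla3, Dgat1, Gpam and Mgll) and 0 were lower, where 14.4% of all genes were higher and 4.32% lower. Dgat2 was 7.67-fold higher (log2 change 2.94 ± 0.23 SE, limma adjusted p = 0.00662), by 2.92 in sh8 cells and 2.95 in WT cells. Pnpla3 was 2.34-fold higher (1.23 ± 0.23 SE, adjusted p = 0.0288), and Dgat1 was 2.26-fold higher (1.18 ± 0.19 SE, adjusted p = 0.0215). Gpam was 1.68-fold higher (0.75 ± 0.16 SE, adjusted p = 0.0369), by 0.66 in sh8 cells and 0.83 in WT cells, and Mgll was 1.63-fold higher (0.71 ± 0.17 SE, adjusted p = 0.0472). The median of the 10 genes was 1.11, and that of all genes was 0.19. With quantile scaling and with the authors' values Dgat1 and Dgat2 passed, without either array of day +2 Dgat1, Dgat2 and Pnpla3 did, without the WT array of day 0 only Dgat2 did, and without the sh8 array of day 0 or either array of day +4, 0 of the 10 did. With normexp Gpam (0.37) and Pnpla3 (0.49) lost their calls, while Gpd1 (0.83, limma adjusted p = 0.0429) and Lpin1 (0.53, adjusted p = 0.0468) gained calls.

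Gpd1, Lpin1 and Mogat1 had log2 changes of the same size over this interval but did not pass, apart from the normexp calls of Gpd1 and Lpin1 given above. Gpd1 changed by 1.11 ± 0.31 SE (limma adjusted p = 0.0679), by 0.53 in sh8 cells and 1.68 in WT cells. It did pass when only genes above background on all 8 arrays were kept (limma adjusted p = 0.0481). The change of Lpin1 was 1.11 ± 0.32 SE (adjusted p = 0.0736), and that of Mogat1 was 1.28 ± 0.50 SE (adjusted p = 0.135), by 1.88 in sh8 cells and 0.68 in WT cells. Agpat2 (-0.20 ± 0.16 SE, adjusted p = 0.394) and Bscl2 (0.021 ± 0.18 SE, adjusted p = 0.941) had the changes nearest to 0, and that of Bscl2 was below 0 with quantile scaling, median centring and the authors' values.

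**Figure D3:**
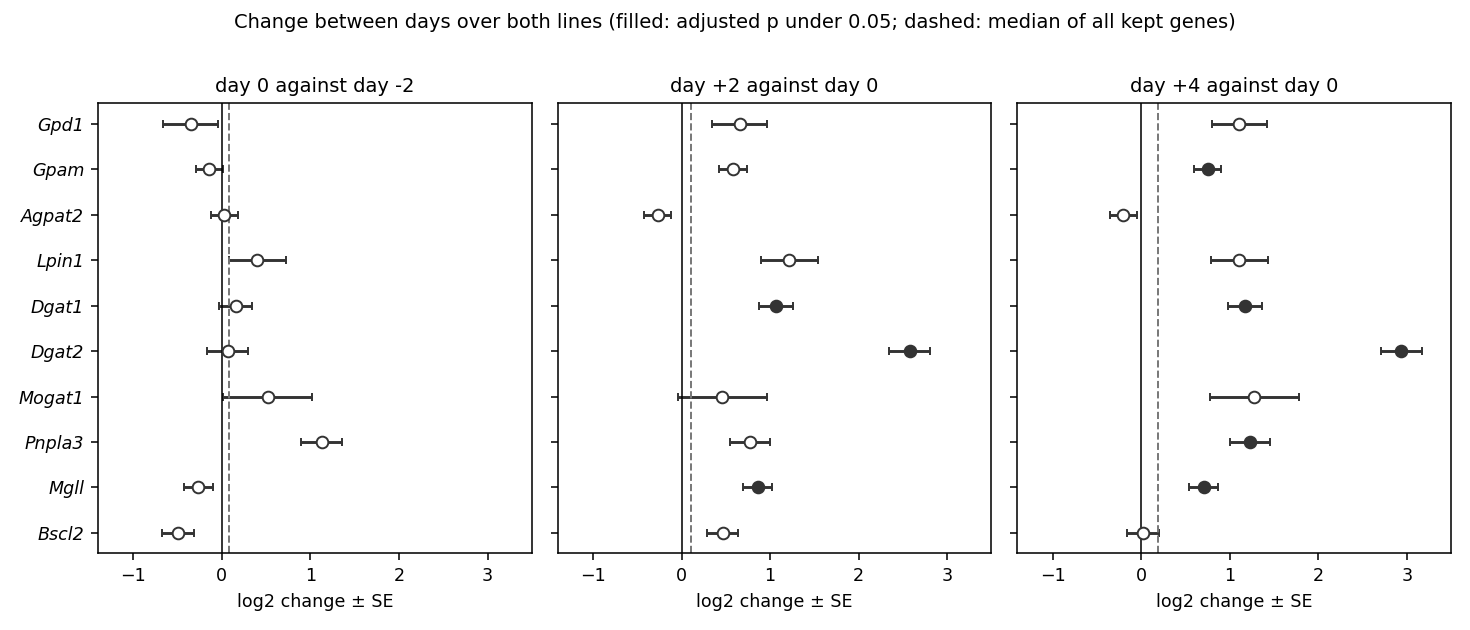
Log2 change between days, averaged over both lines, with its SE for each gene, in 3 panels (day 0 against day -2, day +2 against day 0, day +4 against day 0). Filled points have an adjusted p under 0.05 and the dashed lines are the medians of all kept genes. No gene is filled in the left panel, 3 are in the middle panel and 5 in the right panel, with Dgat2 farthest to the right at 2.58 and 2.94.

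Between day +4 and day +2, 0 of the 10 genes and 0 of all genes passed by limma (0% called), with 1441 of all genes and 0 of the 10 at an unadjusted p under 0.05. The log2 changes of the 10 genes ran from -0.45 for Bscl2 to 0.82 for Mogat1. Lpin1, Dgat1 and Dgat2 were higher on each of the 4 arrays of days +2 and +4 than on each of the 4 arrays of days -2 and 0, a pattern shared by 18.1% of all genes, while 5.73% were lower on each of them and none of the 10 was. For Dgat2 the gap was wide: the lowest of the later arrays was 3.40 and the highest of the earlier arrays was 1.30.

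Markers of lung and of blood moved with the same change of scan. For the 11 lung epithelium genes, 8 were higher at day +2 and 9 at day +4 than at day 0. Their median level was -5.93, -5.72, 0.26 and 0.57 in sh8 cells, against -6.05, -5.47, -0.38 and -0.00033 in WT cells. The log2 of their summed intensity at days +2 and +4 ran from 4.13 to 4.33 in sh8 cells and from 4.27 to 4.55 in WT cells. At days -2 and 0 it ran from 2.79 to 2.93 in sh8 cells and from 3.29 to 3.40 in WT cells. Lamp3 was the brightest gene in this sum on every array and made up most of it at the earlier days. Its levels were 2.80, 2.65, 2.68 and 3.04 in sh8 cells, against 3.35, 3.22, 3.54 and 3.71 in WT cells. Sftpc was at least 117-fold higher at day +2 than at day 0 (limma adjusted p = 0.00128). All 5 red blood cell genes on the array were well above background at days +2 and +4 and 2 were at days -2 and 0, with summed levels of 1.92 to 2.50 at the later days and -1.08 to -0.43 at the earlier days. Of 6 liver genes, Alb and Apoa1 were not well above background on any array, Ttr was on 4, and Apoa2, Serpina1a and Tat were on all 8. In skeletal muscle genes the summed level was lower at the later days (-2.73 to -2.59) than at the earlier days (-1.80 to -0.037). Acta1, the brightest of them at the earlier days, fell from between -2.26 and -0.14 to between -5.23 and -4.63. The number of the 6 muscle genes well above background was 2 or 3 per array at the earlier days and 4 or 5 at the later days. The share of all probes well above background also rose, from between 64.9% and 68.5% to between 72.4% and 81.7%. Fat cell genes rose as well: 7 of 11 were higher at day +4 than at day 0. Among all genes 8.98% were higher at day +2 and 14.4% at day +4 than at day 0. The part of the lung and blood genes, and of the scan, in the changes of the triglyceride genes was not tested. On the 4 arrays of days 0 and +4 alone, Dgat2 passed and the other 9 genes did not.

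**Figure D4:**
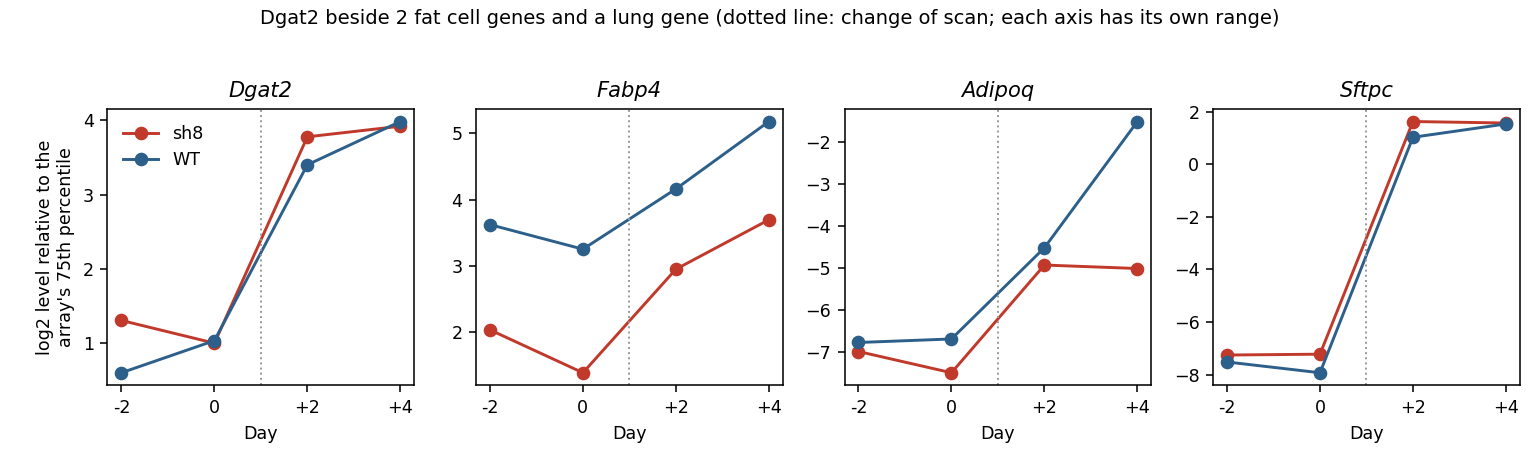
Level of Dgat2, of the fat cell genes Fabp4 and Adipoq and of the lung gene Sftpc on each array by day, in log2 units relative to the array's 75th percentile, with a separate axis range in each panel (sh8 red, WT blue). At day +4 Dgat2 lay at 3.92 in sh8 and 3.98 in WT cells, Adipoq lay at -5.01 in sh8 and -1.50 in WT cells, and Sftpc stood at 1.02 to 1.62 after the change of scan; Adipoq and Sftpc were not well above background before it.

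The third comparison asks whether the change after induction (days +2 and +4 against days -2 and 0) differed between the lines. By limma 0 of the 10 genes and 0 of all genes passed (0% called), with 2 of the 10 and 5262 of all genes at an unadjusted p under 0.05. These 2 were Mogat1 and Lpin1. Mogat1 changed by 1.84 in sh8 cells and 0.42 in WT cells, a difference of 1.42 ± 0.33 SE (adjusted p = 0.170). Lpin1 changed by 1.81 in sh8 cells and 0.92 in WT cells, a difference of 0.89 ± 0.21 SE (adjusted p = 0.173). Gpd1 went the other way, with 0.38 in sh8 cells and 1.03 in WT cells, a difference of -0.65 ± 0.35 SE (adjusted p = 0.381). For Dgat2 the changes were 2.70 in sh8 cells and 2.88 in WT cells, a difference of -0.18 ± 0.34 SE (adjusted p = 0.629).

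Further genes of the pathway were read from lists of their relatives, of which 24 synthesis genes, 3 glycerol supply genes and 7 lipolysis genes were kept. In sh8 cells 5 of the 24 synthesis genes were higher (Mogat2, Lpin3, Tmem159, Lpin2 and Lclat1) and 4 were lower (Acsl1, Agpat3, Gpd1l and Agpat5), where 16.8% of all genes were higher and 10.3% lower, with a median difference of 0.15 against 0.13 for all genes. Mogat2, a second monoacylglycerol acyltransferase, had levels of -0.24, -1.59, -2.55 and -2.73 in sh8 cells, against -3.14, -5.25, -5.36 and -5.16 in WT cells. Every sh8 array was above every WT array, and Mogat2 was 7.71-fold higher in sh8 cells (log2 difference 2.95 ± 0.22 SE, limma adjusted p = 0.00866).

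Lpin3, a relative of Lpin1, had levels of -1.21, -1.76, -1.29 and -1.39 in sh8 cells, against -2.47, -2.80, -2.67 and -2.54 in WT cells. It was 2.31-fold higher in sh8 cells (1.21 ± 0.10 SE, limma adjusted p = 0.00980). Tmem159, which encodes a partner of seipin at the lipid droplet, was 1.52-fold higher (0.60 ± 0.092 SE, adjusted p = 0.0181). Acsl1, the main fatty acid activating enzyme of fat cells, was 1.90-fold lower (-0.92 ± 0.087 SE, adjusted p = 0.0106), with 0.54, 0.83, 1.34 and 1.60 in sh8 cells, against 1.51, 1.79, 2.17 and 2.53 in WT cells.

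None of the 3 glycerol supply genes passed between the lines by limma (1 had an unadjusted p under 0.05). Aqp7, the glycerol channel of fat cells, differed by 0.49 ± 0.13 SE (adjusted p = 0.0533), and Aqp3, another glycerol channel, by -0.33 ± 0.15 SE (adjusted p = 0.153). Of the 7 lipolysis genes 1 passed: Ces1f, a carboxylesterase, was 3.40-fold higher in sh8 cells (1.76 ± 0.25 SE, limma adjusted p = 0.0161). Its levels were -2.31, 0.99, 0.19 and 1.52 in sh8 cells, against -3.19, -1.02, -1.80 and -0.66 in WT cells.

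**Figure D5:**
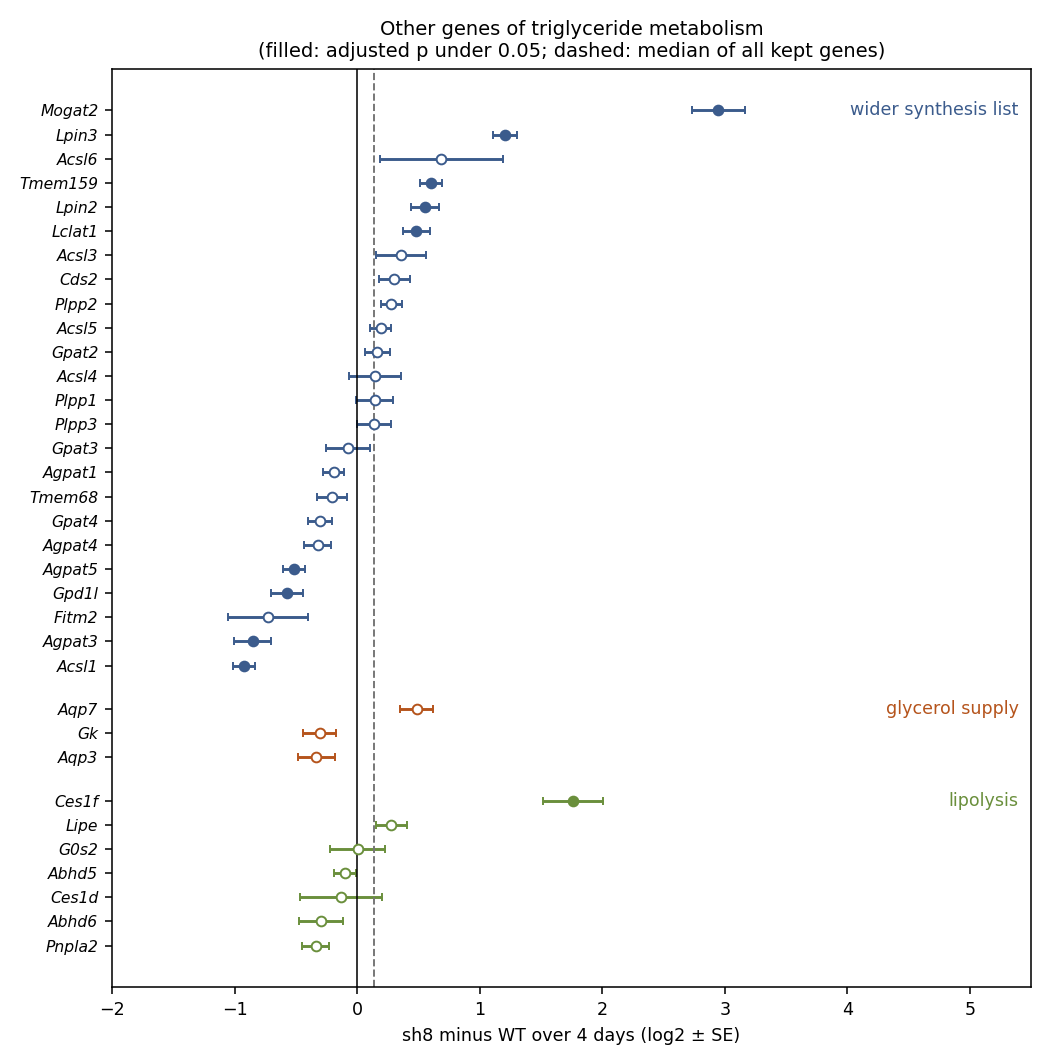
Log2 difference between sh8 and WT cells over the 4 days, with its SE, for 24 further synthesis genes, 3 glycerol supply genes and 7 lipolysis genes, 1 gene per line. Filled points have an adjusted p under 0.05 and the dashed line is the median of all kept genes (0.13). Mogat2 at 2.95 and Ces1f at 1.76 lie farthest to the right of their lists, and Acsl1 at -0.92 lies farthest to the left.

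At day +4 against day 0, 5 of the 24 synthesis genes were higher and 0 lower, where 14.4% of all genes were higher and 4.32% lower, with a median change of 0.34 against 0.19 for all genes. Agpat5 and Agpat4, relatives of Agpat2, were 2.49-fold and 2.08-fold higher (limma adjusted p = 0.00893 and 0.0174), and Acsl1 was 1.69-fold higher (0.76 ± 0.12 SE, adjusted p = 0.0215). Gpat2, a relative of Gpam, was 1.81-fold higher (adjusted p = 0.0221), with levels below those of the 75th percentile on every array. Aqp7 was 2.98-fold higher (log2 change 1.57 ± 0.19 SE, adjusted p = 0.0124) and Aqp3 was 1.94-fold lower (-0.96 ± 0.21 SE, adjusted p = 0.0407). Of the lipolysis genes, Abhd5, the activator of the main triglyceride lipase, was 2.70-fold higher (adjusted p = 0.00730). G0s2, an inhibitor of that lipase, was at least 2.23-fold higher (adjusted p = 0.0262), since it was not well above background on either array of day 0.

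At day +2 against day 0, 3 of the 24 synthesis genes were higher (Agpat5, Gpat2 and Agpat4, by 0.98, 0.96 and 0.81), as were Aqp7 (1.07), Abhd5 (1.41) and G0s2 (at least 1.93-fold), and 0 genes of the 3 lists were lower, where 8.98% of all genes were higher and 2.91% lower. Between day 0 and day -2 and between day +4 and day +2, 0 genes of these lists passed by limma. At an unadjusted p under 0.05, 5 of the 24 synthesis genes were higher and 8 lower in the first of these steps, as were 4026 and 2698 of all 26461 genes. In the second step 2 were higher and 1 lower, as were 1009 and 432 of all genes. Ces1f changed by 2.74 ± 0.35 SE at day 0 against day -2 (adjusted p = 0.0611) and Mogat2 by -1.73 ± 0.31 SE (adjusted p = 0.0736).

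Likeness of profiles was described for Gpd1, Agpat2 and Dgat2 as the root mean square difference over the 8 arrays after each gene was centred on its own mean, among 13782 named genes well above background on all 8 arrays. Nearest to Gpd1 were Eln (0.162), Crip1 (0.173) and Frem2 (0.181), where the median candidate was at 0.705. Agpat2 was nearest to Stard3 (0.0498), Cnpy3 (0.0605) and Atp13a2 (0.0701), with a median of 0.398. For Dgat2 the nearest were Myh14 (0.193), Cracdl (0.237) and Cyb561 (0.263), with a median of 1.44. Among the 10 genes the closest pair was Gpd1 and Mgll (0.310), and Dgat2 was at 0.830 or more from each of the others. The 8 arrays share lines, days and scans, so these distances are a description only.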

How the data were processed

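RNA of 8 samples (sh8 and WT 3T3-L1 cells, 4 days each) was read on 1-colour Agilent arrays, although the series description names another maker. Per the file headers and the submitters' processing notes, the authors extracted each spot's intensity with Agilent Feature Extraction 11.0.1.1. The authors also deposited a log2 value table. Its columns share a median of 6.38 and correlate best with their own array (r from 0.994 to 1.00, in the same direction). The sources used here do not say how it was scaled, and it served as an alternative.

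Control spots (1377 of 44397) and 46 probes with outlier flags were left out, repeat spots were averaged to 39429 probes, and 27234 probes received a symbol by RefSeq accession (GRCm38.p6). Values are log2 processed intensity minus the array's 75th percentile. Probes well above background on at least 2 arrays were kept, and the brightest probe stood for a gene (26461 kept, 17548 of them named). Tests used limma 3.58.1 (lmFit, eBayes) in R 4.3.3 with line and day as factors (3 residual degrees of freedom) or with a line by period interaction (2), Benjamini-Hochberg adjustment over all kept genes and a threshold of 0.05. The procedure was tested on simulated data.

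The genes and lists were chosen with earlier results of these data known. Named were all 10 genes, Pparg, Fabp4, and per list and comparison the 4 called genes of lowest p, or 2 where none was called. Other genes in the text (such as Sftpc, Ptprc and Lpin2) were named after their values were seen. An "at least" fold sets a gene's mean against the lowest signal well above background on each array. Alternatives were quantile scaling, median centring, the authors' values, normexp background correction (offset 50, on median signals because the files hold no mean signal), other probe filters, the mean of a gene's probes, scan as the block, single scans and leaving out each array. The interaction model read within each scan was added after seeing the data.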

Additional observations from a re-analysis of the deposited data

Results flagged for a closer look

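Of the 10 genes and the 3 wider lists, 5 genes differed between the lines in opposite directions before and after induction, with the differences of days -2 and 0 of one sign and those of days +2 and +4 of the other. Each such difference was also tested by the line by period interaction in limma, and none passed. Lpin1, sh8 minus WT, was -0.54, -0.86, 0.34 and 0.042 on the 4 days, and the interaction was 0.89 (adjusted p = 0.173). Ces1d, a carboxylesterase that acts on stored lipid, was at -1.20, -0.38, 0.39 and 0.67, with an interaction of 1.31 (adjusted p = 0.189). Acsl4, which activates polyunsaturated fatty acids, was at -0.34, -0.21, 0.54 and 0.60, with 0.84 (adjusted p = 0.136). Plpp1, a lipid phosphate phosphatase, went the other way at 0.45, 0.40, -0.15 and -0.11, with -0.56 (adjusted p = 0.179), as did Gpat3, another glycerol 3-phosphate acyltransferase, at 0.40, 0.038, -0.60 and -0.14, with -0.59 (adjusted p = 0.306).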

How the results depend on the processing

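No paired analysis was possible because the labels number every array 1, so that no number pairs arrays beyond the day, which the fit between the lines already held as a block. Counts of the 10 genes past the threshold moved as follows; the cause was not tested. For sh8 against WT (6 genes), 3 of the 7 genes above background on all 8 arrays passed, 0 on the first scan alone, 2 on the second scan alone, 0 at days -2 and 0 in the interaction model, and 0 to 5 with 1 array left out (5 only without an array of day -2). For day +2 against day 0 (3 genes), 1 passed with quantile scaling, 1 with the authors' values, 0 on its own 4 arrays and 0 to 1 with 1 array left out. For day +4 against day 0 (5 genes), 2 passed with quantile scaling, 3 with median centring, 2 with the authors' values, 3 with no filter, 1 on its own 4 arrays and 0 to 4 with 1 array left out. Day 0 against day -2, day +4 against day +2 and the interaction gave 0 throughout. Between the lines, Gpam and Mogat1 lost their calls with normexp, where Dgat1 gained one (0.37, adjusted p = 0.0460), Gpd1 and Mogat1 lost theirs with no filter (0.0639 and 0.0636) and with scan as the block (0.0530 and 0.0524), and with the mean of probes Mgll lost its call (0.38, 0.0771).

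Signs turned only for changes that did not pass. Between the lines they were Agpat2 with median centring (-0.013) and Lpin1 with normexp (0.028), the mean of probes (0.084) and the second scan alone (0.19). At day 0 against day -2 they were Agpat2 with quantile scaling (-0.017), median centring (-0.042) and the authors' values (-0.017), Dgat2 with median centring (-0.0072), Gpam (0.14) and Bscl2 (0.028) with normexp, and Mgll with the mean of probes (0.35). At day +4 against day 0 Bscl2 was -0.37 with quantile scaling, -0.17 with median centring and -0.37 with the authors' values. In the interaction Bscl2 was -0.032, -0.059, -0.032 and -0.067 with quantile scaling, median centring, the authors' values and normexp, and Pnpla3 was -0.0058 with the mean of probes. With 1 array left out, ranges crossed 0 at day 0 against day -2 for Gpam (-0.31 to 0.031), Agpat2 (-0.086 to 0.14), Lpin1 (-0.0042 to 0.81), Dgat1 (-0.0023 to 0.31), Dgat2 (-0.24 to 0.37), Mogat1 (-0.21 to 1.24) and Pparg (-0.42 to 0.17). At day +4 against day +2 they did for Gpd1 (-0.055 to 0.96), Agpat2 (-0.11 to 0.25), Lpin1 (-0.51 to 0.29), Dgat1 (-0.14 to 0.35), Mgll (-0.31 to 0.0061), Aqp3 (-0.48 to 0.0010) and Pparg (-0.18 to 0.31). At day +4 against day 0 they did for Bscl2 (-0.15 to 0.19), and in the interaction for Dgat2 (-0.55 to 0.19), Bscl2 (-0.23 to 0.26), Pnpla3 (-0.26 to 0.57) and Mgll (-0.10 to 0.29).

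Among all genes, 7158 passed between the lines, 0 on the first scan alone (8382 unadjusted) and 0 to 4212 with 1 array left out. Of those called, 62.0% were higher in sh8 cells, against 50.7% with quantile scaling, 30.2% with median centring and 51.0% with the authors' values, and at day +4 against day 0 76.9% were higher, against 60.5%, 56.8% and 59.5%. At day +2 against day 0 it was 75.6%, against 62.1%, 60.0% and 61.4%. Calls at that step numbered 3146, against 1952 with quantile scaling and 1964 with the authors' values, and at day +4 against day 0 4958, against 3278 and 3297, with 2095 on its own 4 arrays. Day 0 against day -2 had 0 calls, 3492 with normexp and 1672 among genes above background on all 8 arrays, and the interaction had 0, 1260 and 1116. Mogat1, Pnpla3, Gpam and Bscl2 lay near background, where signal limits the precision. Bscl2 was well above background on all 8 arrays, but its intensities of 18.3 to 71.5 were as low as those of Gpam (22.6 to 60.6). Lpin1, also well above background on all 8 arrays, had intensities of 28.4 to 92.6. In sh8 cells at days -2 and 0 they were 30.0 and 28.4, so the same limit holds for its differences on those days.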
